A study of Mus musculus with 5 samples.

Results

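The effect of dose was examined in the 2 libraries of Lewis lung carcinoma (LLC, a mouse lung tumor line) treated with BMN/PAZA, out of 5 libraries in the series. BMN (BMN673, talazoparib) is an inhibitor of poly(ADP-ribose) polymerase (PARP), and PAZA is a polymeric carrier that also delivers azacytidine (AZA), an inhibitor of DNA methyltransferases. The low-dose library came from BMN and AZA at 0.25 mg/kg each, and the high-dose library from 2 mg/kg each. Following the methods of the study, female C57BL/6 mice of 4 to 6 weeks at purchase carried subcutaneous flank tumors, received 5 intravenous injections at intervals of 3 days, and gave tumor tissue 1 day after the last one. The sample labels instead describe LLC cells under treatment for 72 h, so the material is named differently in the sources. Ptprc, Pecam1 and Pdgfra, which mark leukocytes, endothelium and fibroblasts, were above 0 in both libraries. Both libraries carry both drugs, and BMN and AZA differ together in dose, so neither drug can be told apart from the other here. The table that holds both doses listed 16155 symbols above 0 in at least one library (16171 deposited rows, with 15 symbols repeated), and all of them entered the comparison.

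Inhibited PARP enzymes stay on DNA at single-strand breaks, and cells then depend on homologous recombination to repair the breaks that form at replication. Azacytidine is phosphorylated by uridine-cytidine kinases, enters RNA and, after reduction, DNA, where it binds DNA methyltransferases covalently. Loss of DNA methylation can open germline genes, imprinted genes and endogenous repeats in tumor cells. A flank tumor is also a mixture of cancer cells, stroma, vessels, leukocytes and adjoining skin, fat and muscle. In such bulk samples fewer cells of a type and less RNA per cell cannot be told apart.

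Each dose has 1 library, so no spread between replicates exists, no test was possible, and every difference below separates these libraries and not the doses as conditions. Values are FPKM (fragments scaled to the length of the gene and the size of the library), and log2 ratios are the high over the low dose with 1 FPKM added to each value, so that a positive ratio means a higher value at the high dose. The low-dose column was first divided by 3.6, because 15493 of its 15495 values above 0 then have at most 6 significant digits, against 1710 as deposited. Over the symbols, the low-dose values then sum to 532691 FPKM and the high-dose values to 588275 FPKM, and without mitochondrial genes to 397765 and 386390 FPKM. Scaling both columns to the same sum lowers the median log2 ratio of all symbols from -0.04 to -0.14, so a list median close to 0 gives no direction by itself. The low-dose library also stands in the tables beside PAZA and beside BMN. After the constant ratio between tables was taken out, its value was more than 0.5% off for 204 of 11262 genes in the table with PAZA and for 343 of 11257 genes in the table with BMN, 345 genes in either. Which table holds the right value was not tested, and for the genes named below that are among them the other values are given.

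Most genes differed little between the doses. The log2 ratio lay within 0.5 of 0 for 13620 of 16155 symbols (84.3%), with quartiles of -0.22 and 0.17. At least 2-fold higher were 272 symbols (1.68%) at the high dose and 214 symbols (1.32%) at the low dose, which became 371 and 548 symbols with both columns scaled to the same sum. The ratio was above 0 for 7208 symbols (44.6%) and below 0 for 8947 (55.4%), whereas among the 10233 nuclear symbols with a mean of at least 1 FPKM it was above 0 for 49.9%. The counts of higher, lower and 2-fold different members of each list below are to be read against these shares. Symbols listed at 0 numbered 2417 (15%) in the high-dose library and 675 (4.18%) in the low-dose library. The genes at 0 in the high-dose library had a median of only 0.115 FPKM in the low-dose library. Read depth is not known from these files. Where a gene rests on 1 fragment in each library the ratio depends on depth alone, but which genes do so is not known. Over 2465 genes between 0.02 and 1 FPKM in both libraries the most frequent ratio of high over low was 1.09. Only 123 of these genes had that ratio, and genes at 0 in either library are not among them, so it does not measure depth. Across the chromosomes the median ratio ran from -0.07 for chromosome 9 to 0.01 for chromosome 12, and only the 15 mitochondrial genes stood apart, with a median of 0.78.

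**Figure D1:**
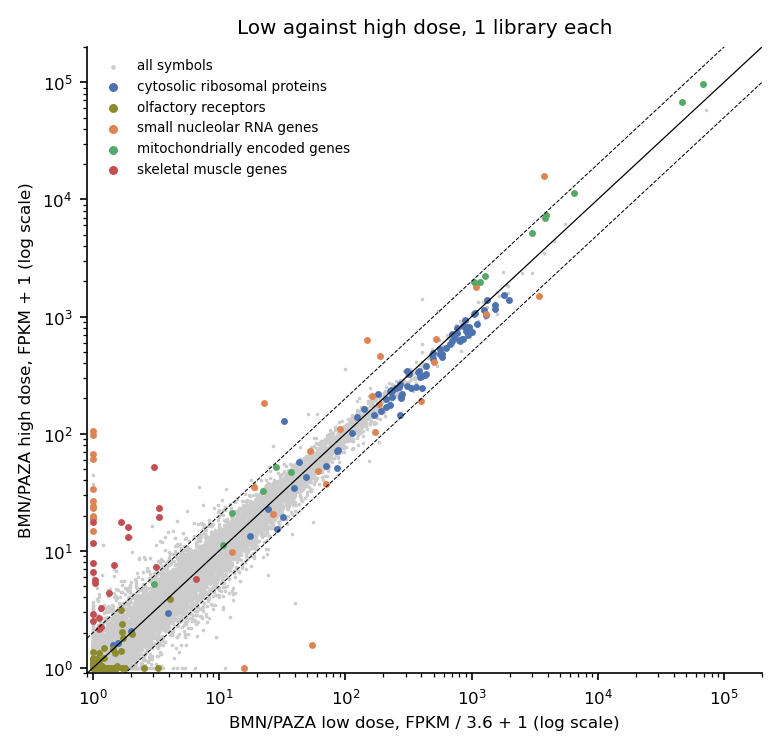
Every symbol by its value in the low-dose library (x axis, FPKM divided by 3.6, plus 1, log scale) and in the high-dose library (y axis, FPKM plus 1, log scale), 1 library each; the solid line marks equal values and the dashed lines 2-fold differences. Skeletal muscle genes and many small nucleolar RNA genes lie above the upper dashed line at the left, mitochondrially encoded genes lie between the solid and the upper dashed line, and most cytosolic ribosomal protein genes lie a little below the solid line.

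The widest differences between the doses belonged to small nucleolar RNA (snoRNA) genes, whose products guide the chemical modification of ribosomal RNA. By the GENCODE annotation 34 genes of this class were above 0, between 84 and 325 bases long. Of these, 16 were at least 2-fold higher at the high dose and 4 at least 2-fold higher at the low dose. The 10 highest ratios of all genes with a mean of at least 5 FPKM were those of 8 snoRNA genes, the spliceosomal RNA gene Rnu5g and the 5S ribosomal RNA gene n-R5s151, and all 10 were listed at 0 in the low-dose library. At the other end, Snora16a and Snora3, again snoRNA genes, had the lowest ratios. The sequences of Snora44 and Snora16a are shown because both lie on chromosome 4 within Snhg12 and differed in opposite directions, and that of Snora75 because it had the next highest ratio after Snora44. They are GENCODE M21 transcripts on GRCm38, at chr4:132309941-132310069 on the plus strand for Snora44, chr4:132309464-132309600 on the plus strand for Snora16a and chr1:86351169-86351301 on the minus strand for Snora75. Capitals mark the ACA box that lies 3 bases from the 3' end, which the annotated Snora44 sequence does not show in its last bases.
Snora16a: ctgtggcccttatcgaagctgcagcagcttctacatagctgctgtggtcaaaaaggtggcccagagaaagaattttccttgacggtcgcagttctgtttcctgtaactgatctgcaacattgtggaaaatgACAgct
Snora44: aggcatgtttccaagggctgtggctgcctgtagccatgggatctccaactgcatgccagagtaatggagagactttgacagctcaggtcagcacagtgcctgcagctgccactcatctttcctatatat
Snora75: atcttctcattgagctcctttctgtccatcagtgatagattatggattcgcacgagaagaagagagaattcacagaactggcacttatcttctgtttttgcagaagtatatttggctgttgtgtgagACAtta

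Snora44 was listed at 0 in the low-dose library and at 104 FPKM in the high-dose library, and Snora16a at 53.2 and 0.576 FPKM. Snhg12, the noncoding gene whose span holds both, had 19 FPKM at the low dose and 14.3 FPKM at the high dose. The snoRNA genes and their surrounding gene therefore showed 3 different ratios, 6.71, -5.10 and -0.39. Snora75, within the nucleolin gene Ncl, was listed at 0 and 96.3 FPKM, while Ncl itself had 204 and 231 FPKM. Snora3, within Rpl27a, went the other way, with 14.9 FPKM at the low dose and 0 at the high dose, beside 703 and 613 FPKM for Rpl27a. The annotation holds 2 overlapping genes under the name Snora16a, and the higher of their rows was used. In the table with BMN the low-dose value of Snora16a was 0.581 FPKM on the scale used here, which gives a ratio of -0.0045, against 53.2 FPKM in the table with PAZA, so its ratio is uncertain.

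Of the 34 snoRNA genes, 25 lay within 22 longer genes of the table on the same strand. The median log2 ratio of those 22 genes was -0.19, and 1 of them, the ribosomal protein gene Rps2, was past 2-fold. The snoRNA genes had a median of 0.81, and 12 of them were at 0 in the low-dose library against 1 in the high-dose library. With the low-dose values of the table with PAZA the median was 0.29, over the 27 of them that this table holds, since 383 of the 384 symbols absent from it are at 0 at the low dose. Among those above 0 in both, Snord21, within the ribosomal protein gene Rpl5, had 3756 FPKM at the low dose and 15987 FPKM at the high dose. Snord33, within Rpl13a, was instead higher at the low dose, with 3395 and 1487 FPKM. Neither direction was thus common to the class. In 16 of the 25 pairs the snoRNA gene and the gene around it had ratios of the same sign. Reads from a snoRNA and from the transcript around it overlap, and such short genes gain many FPKM from few fragments, so these values are uncertain.

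**Figure D2:**
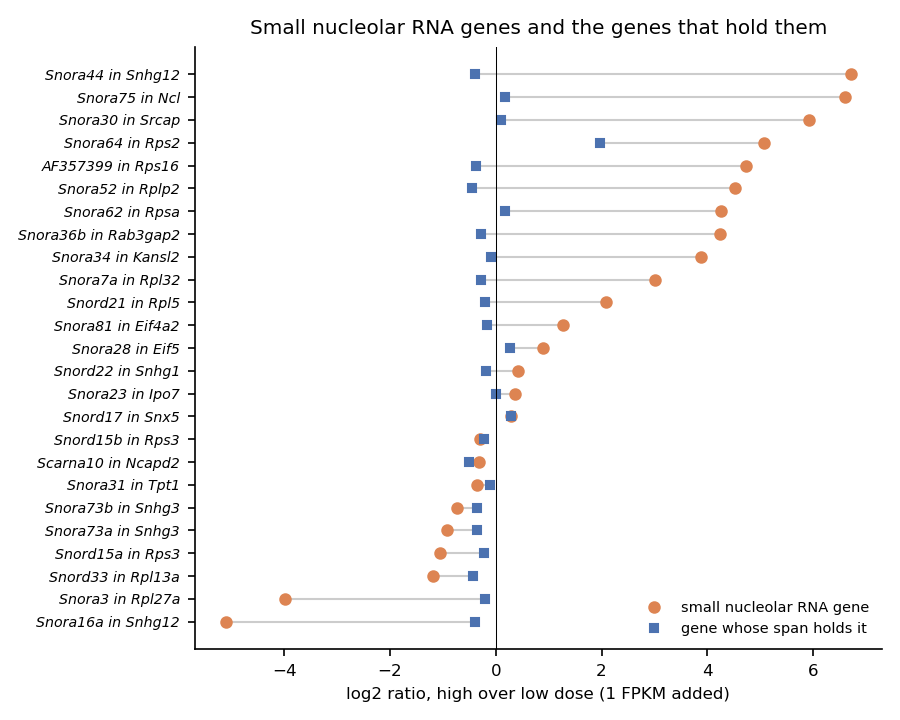
Log2 ratio, high over low dose, with 1 FPKM added, of the 25 snoRNA genes that lie within a longer gene (circles) and of that longer gene (squares). The snoRNA genes spread from -5.10 (Snora16a) to 6.71 (Snora44), and the longer genes, except Rps2 at 1.98, stay between -0.51 and 0.29.

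The other short RNA genes were spread as well. Rnu5g, of the U5 spliceosomal particle, was listed at 0 at the low dose and at 43.8 FPKM at the high dose. Rnu11 and Rnu12, of the minor spliceosome, had 403 and 545 FPKM at the low dose and 1418 and 1111 FPKM at the high dose. By contrast Rn7sk, which holds the elongation factor P-TEFb inactive, had 71821 and 58530 FPKM, and the signal recognition particle RNA genes Rn7s1 and Rn7s2 had log2 ratios of -0.72 and -0.59. The spliceosomal RNA genes did not share a direction, since Rnu1b1 and Rnu1b6, of the U1 particle, had log2 ratios of -0.36 and -0.16.

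Skeletal muscle genes formed the list that differed most. The list of 22 genes for the contractile apparatus and muscle metabolism was above 0 in full, and 19 of its genes were at least 2-fold higher at the high dose, against 1.68% of all symbols. The median log2 ratio was 2.40, with quartiles of 1.37 and 2.93, and the summed level was 18.4 FPKM at the low dose and 215 FPKM at the high dose. For the fast fibre genes with the highest ratios that the promoter table holds, the window from 250 bases before to 50 after the start is shown, from RefSeq on GRCm38.p6. Tnnc2 lies at chr2:164779685-164779984 on the minus strand, Myl1 at chr1:66945007-66945306 on the minus strand and Myh4 at chr11:67237562-67237861 on the plus strand. Capitals mark CAGCTG, an E-box sequence bound by myogenic factors, and TATAAA, the sequence of the TATA box. Each was searched on both strands and at any position in the window, so a marked stretch need not act as that element. The Tnnc2 window holds neither.
Tnnc2: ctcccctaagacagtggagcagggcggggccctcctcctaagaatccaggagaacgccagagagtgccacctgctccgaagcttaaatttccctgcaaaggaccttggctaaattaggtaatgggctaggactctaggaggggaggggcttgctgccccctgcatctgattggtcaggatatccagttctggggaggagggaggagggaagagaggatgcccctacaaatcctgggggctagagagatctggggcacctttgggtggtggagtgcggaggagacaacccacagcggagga
Myl1: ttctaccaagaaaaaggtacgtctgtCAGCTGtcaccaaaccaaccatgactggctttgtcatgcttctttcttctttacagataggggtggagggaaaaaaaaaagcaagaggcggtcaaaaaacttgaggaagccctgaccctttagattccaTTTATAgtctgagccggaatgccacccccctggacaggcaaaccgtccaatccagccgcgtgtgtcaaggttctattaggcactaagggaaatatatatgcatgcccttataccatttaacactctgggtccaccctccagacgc
Myh4: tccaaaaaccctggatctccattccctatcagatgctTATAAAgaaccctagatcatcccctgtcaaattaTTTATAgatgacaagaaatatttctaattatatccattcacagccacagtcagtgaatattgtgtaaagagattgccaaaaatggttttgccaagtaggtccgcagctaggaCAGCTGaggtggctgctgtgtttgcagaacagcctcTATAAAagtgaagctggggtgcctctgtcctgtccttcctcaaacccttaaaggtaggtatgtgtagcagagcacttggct
Of all 32851 promoter windows, 16.3% held CAGCTG and 13.6% held TATAAA. Of the 19 windows of the 16 muscle genes found there, 11 held CAGCTG and 5 held TATAAA.

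Among the thin filament genes, Tnnt3, the fast troponin T gene, had 2.05 FPKM at the low dose and 51.1 FPKM at the high dose. Tnnc2, fast troponin C, was listed at 0 and 16.6 FPKM, and Acta1, skeletal actin, had 0.892 and 14.9 FPKM. All 3 were therefore low or at 0 at the low dose. The thick filament behaved alike, with Myh4, the fastest myosin heavy chain, at 0.674 and 16.5 FPKM and Myl1, a fast light chain, at 0 and 10.6 FPKM. Ckm, muscle creatine kinase, was listed at 0 and 6.85 FPKM. The exceptions were Eno3, muscle enolase, at 5.58 and 4.77 FPKM, and Myh2 and Ryr1, whose ratios of 0.94 and 0.96 lay just under 2-fold. Des, the intermediate filament desmin, was the least different gene past 2-fold, with 2.16 and 6.23 FPKM.

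The level of muscle genes varied among all 5 libraries and not between the doses alone. The summed level of the list was 18.2 FPKM in Control, 66.3 in PAZA and 159 in BMN, in tables that were normalized separately. The low-dose library was thus near Control and the high-dose library above BMN. For Tnnt3 the values were 2.37 FPKM in Control, 10.9 in PAZA and 40.4 in BMN, and for Myh4 0.673, 1.56 and 16.8. How much muscle tissue each tumor sample held was not tested. The muscle list and the short RNA genes were also left out, a choice made after seeing the data. Without them, 230 symbols were at least 2-fold higher at the high dose and 209 at the low dose.

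**Figure D3:**
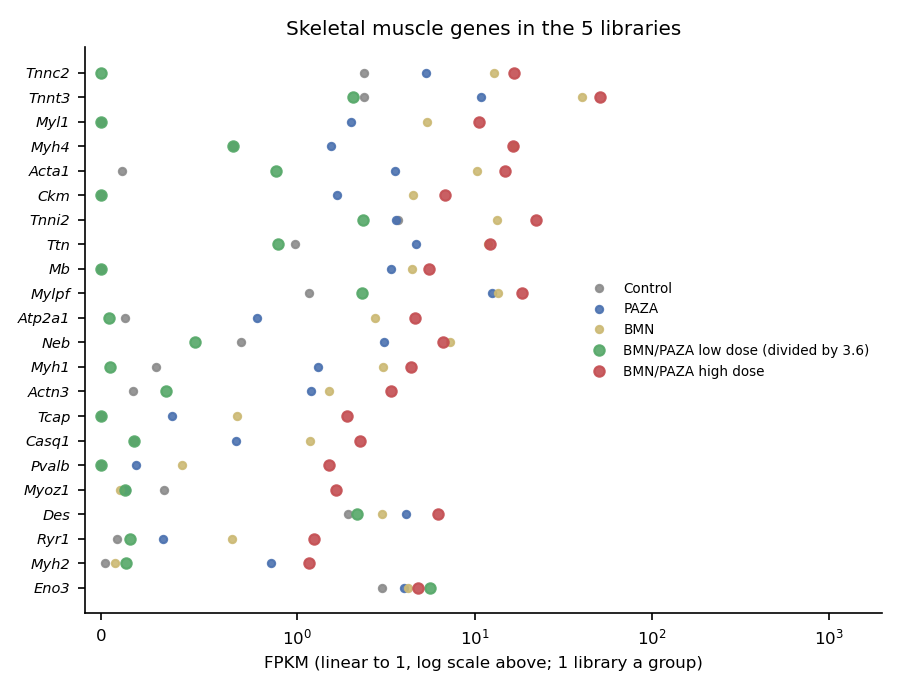
FPKM of the 22 skeletal muscle genes (x axis, linear up to 1 and log scale above) in the 5 libraries, 1 library a group, sorted by the log2 ratio of high over low dose. The high-dose library is the highest for most genes, BMN lies close to it for genes such as Ttn, Neb and Myh4, and the low-dose library lies near or below Control for many genes, while Eno3 at the bottom is highest at the low dose.

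All 13 mitochondrially encoded respiratory genes were higher at the high dose, with a median log2 ratio of 0.78 and quartiles of 0.75 and 0.86, and the median stayed at 0.64 with both columns scaled to the same sum. These genes encode core subunits of the respiratory complexes and are transcribed together from the circular genome. mt-Cytb, of complex III, had 3860 FPKM at the low dose and 7296 FPKM at the high dose, and mt-Nd1, of complex I, 3817 and 6933 FPKM. The least different were mt-Nd3 at 9.71 and 10.2 FPKM and mt-Atp8 at 36.4 and 45.9 FPKM. None of the 13 reached 2-fold. Together with the ribosomal RNAs mt-Rnr1 (46269 and 68461 FPKM) and mt-Rnr2 (67926 and 96402 FPKM) they took 25.3% of the low-dose column and 34.3% of the high-dose column. In tables normalized separately, the 13 genes summed to 28448 FPKM in Control, 24907 in PAZA and 29291 in BMN, against 20730 at the low dose and 37022 at the high dose, so both doses lay outside the range of the other 3 libraries, on opposite sides. Copies of mitochondrial sequence in the nuclear genome make single values of such genes uncertain.

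The nuclear genes of the same respiratory complexes did not share this direction. Of 49 genes above 0, 21 were higher and 28 lower at the high dose, none past 2-fold, with a median of -0.08. Cycs, cytochrome c, had 55.8 FPKM at the low dose and 90.1 at the high dose, and Ndufa9, of complex I, had 18.7 and 10.9. The mitochondrial ribosomal proteins, which translate the mitochondrial messages, were lower for 51 of 78 genes, with a median of -0.10. Mrps36 had the lowest ratio of them, -1.17, from 10.1 to 3.94 FPKM, and Mrpl20 the highest, 0.92, from 20.4 to 39.5 FPKM.

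Cytosolic ribosomal protein and proteasome genes were slightly lower at the high dose as groups. Of the 86 cytosolic ribosomal protein genes, 68 were lower, against 55.4% of all symbols, and the median ratio was -0.21. The nuclear symbols of the same high level, with a mean of at least 100 FPKM, had a median of -0.06, and 37.9% of them were higher at the high dose. Rpl27 had 272 FPKM at the low dose and 144 FPKM at the high dose. Of the 18 that were higher, Rps2 alone was past 2-fold, at 31.5 and 127 FPKM, beside Snora64 within it at 0 and 32.7 FPKM. Many ribosomal protein genes have near-identical processed copies, and the pseudogenes Rpl39-ps (10.1 and 0 FPKM) and Rps23-ps1 (54.2 and 16.6 FPKM) were among the 10 lowest ratios, so the split of reads among copies is uncertain. Of 31 proteasome genes 23 were lower, with a median of -0.14, as for Psma7 at 361 and 270 FPKM, while Psmd2 had 152 and 189 FPKM.

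Translation initiation factors and aminoacyl-tRNA synthetases had no direction that held under scaling, with medians of 0.01 and 0.05 that became -0.13 and -0.09 with both columns set to the same sum. Vars2 and Cars2, mitochondrial synthetases for valine and cysteine, were past 2-fold in opposite directions, at 0.977 and 3.96 FPKM and at 5.57 and 1.85 FPKM. Of 24 heat shock and chaperone genes 15 were lower, with a median of -0.05. Hspa8, the constitutive chaperone Hsc70, had 1921 FPKM at the low dose and 1415 at the high dose, and Hspa1a, an inducible chaperone with a near-identical copy Hspa1b, had 2.02 and 0.575. The 27 genes of the unfolded protein and integrated stress responses were nearly level, with a median of 0.05 that became -0.08 under the common sum, and the eIF2 kinase gene Eif2ak3 (PERK) had the highest ratio, 0.59.

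Glycolysis and hypoxia genes were lower at the high dose in 26 of 32 cases, with a median of -0.24 and quartiles of -0.35 and -0.12, and none was past 2-fold. Slc2a1, the glucose transporter GLUT1, had 33.7 FPKM at the low dose and 23.8 FPKM at the high dose. Pfkp, a phosphofructokinase, had 72.2 and 49.4 FPKM, with low-dose values of 90.6 and 144 FPKM in the tables with PAZA and BMN, and Ero1l, an endoplasmic reticulum oxidase induced by hypoxia, had 88.7 and 56.0 FPKM. Adm, which encodes adrenomedullin and responds to hypoxia too, was opposite, at 1.80 and 3.06 FPKM. Gapdh was listed at 1.99 and 1.08 FPKM, far below the other enzymes of the pathway, and the gene has many processed copies, so this value is uncertain.

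Lipid synthesis was lower in a like number of genes. Of 23 cholesterol synthesis genes 16 were lower at the high dose, with a median of -0.11, and Hsd17b7, an enzyme of the late pathway, was past 2-fold at 13.4 and 5.60 FPKM. Hmgcs1, at the head of the pathway, had 43.1 and 36.0 FPKM. Of 15 fatty acid synthesis and storage genes 11 were lower, with a median of -0.15, led by Srebf1, the transcription factor of the program, at 16.8 and 11 FPKM, while Fasn had 17.5 and 20.4 FPKM. Serine and one-carbon genes were on the other side, with 12 of 19 higher and a median of 0.09, or 0.01 under the common sum. Phgdh, the first enzyme of serine synthesis, was at the 2-fold mark, with 12.8 and 26.6 FPKM. Antioxidant genes under NRF2 had a median of -0.02, with Hmox1, heme oxygenase, at 14.4 and 10.1 FPKM and Gclc, which makes glutathione precursors, at 5.73 and 8.43. Of the metallothioneins, Mt1 had 37.2 and 30.5 FPKM and Mt2 14.1 and 20.6.

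**Figure D4:**
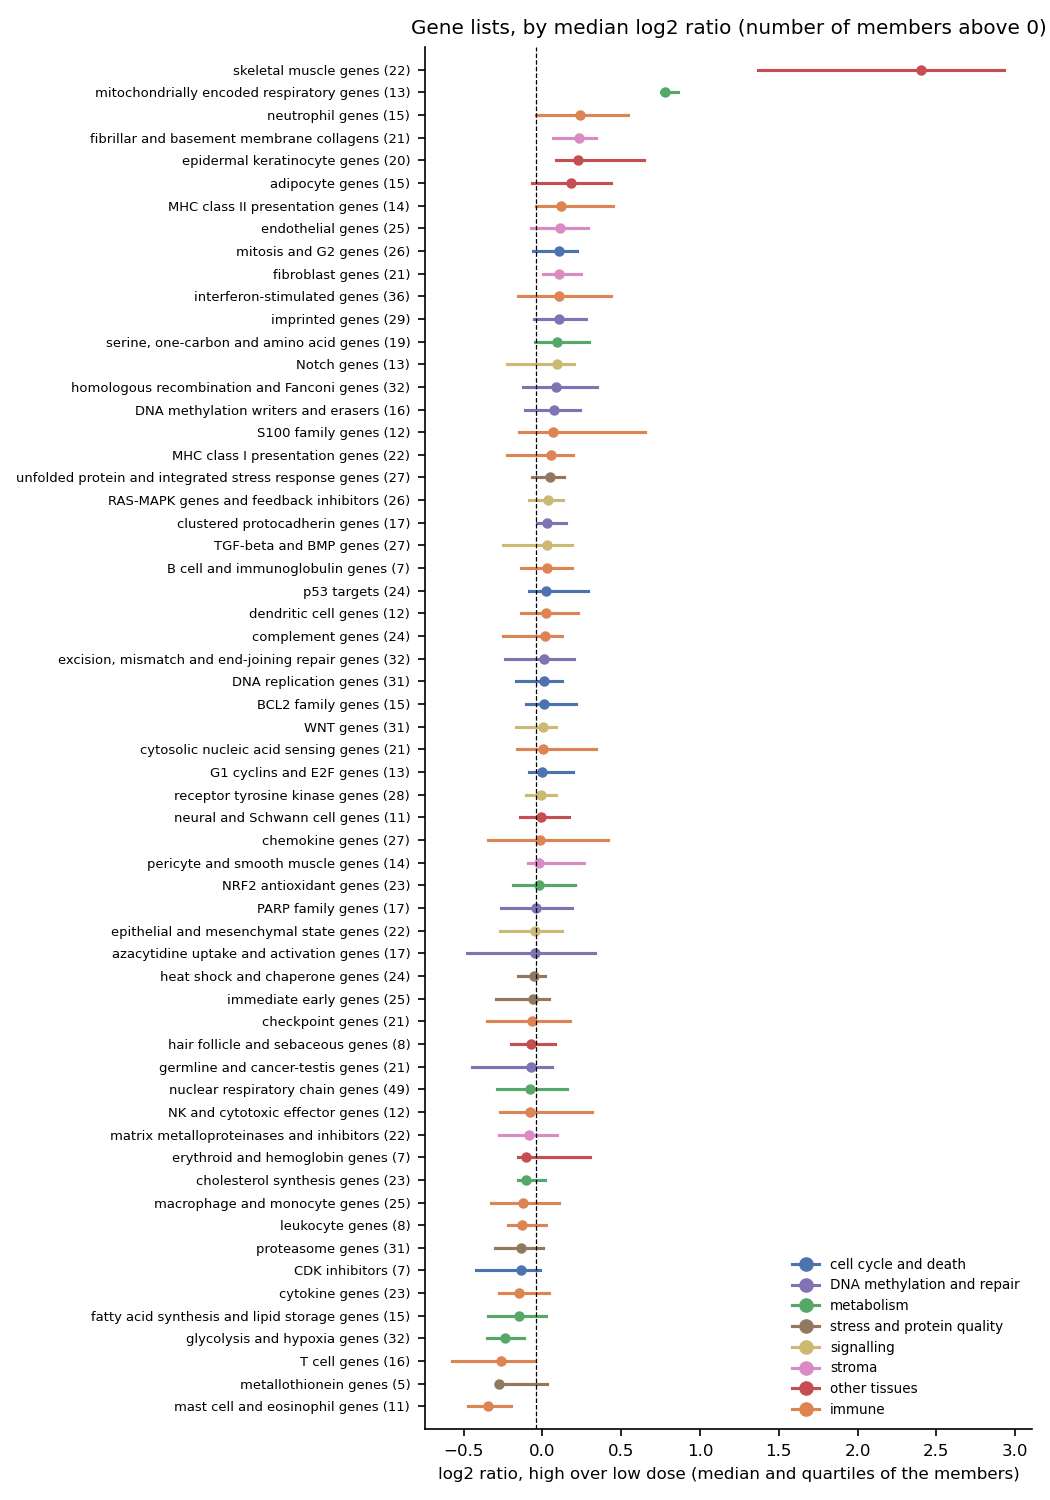
Median log2 ratio, high over low dose, with 1 FPKM added (circle) and quartiles (bar) over the members above 0 of each gene list with at least 5 such members, whose number stands in parentheses; the dashed line is the median of all symbols, -0.04. Skeletal muscle genes at 2.40 and mitochondrially encoded genes at 0.78 stand apart, and every other list has a median between -0.35 (mast cell and eosinophil genes) and 0.24 (neutrophil genes).

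The targets of the drugs and the genes that handle them were examined next. Dnmt1, the maintenance DNA methyltransferase, had 41.7 FPKM at the low dose and 30.9 FPKM at the high dose, a log2 ratio of -0.42. Dnmt3a, a de novo methyltransferase, had 3.74 and 5.84 FPKM. Mbd1, which binds methylated DNA, had 3.40 and 5.17 FPKM. Over the 16 genes that write, read or erase DNA methylation, 10 were higher and 6 lower, none past 2-fold, with a median of 0.08 that was 0.02 under the common sum. Of the kinases that activate azacytidine, Uck1 had 4.99 FPKM at the low dose and 2.42 at the high dose, and Uckl1 6.66 and 3.26. Cda, which inactivates the drug by deamination, had 2.64 and 1.31 FPKM, or 3.23 at the low dose in the table with BMN, and Slc29a2, an equilibrative nucleoside transporter, 0.866 and 1.82. Samhd1, which breaks down deoxynucleotide triphosphates, had 29.2 and 43.7 FPKM, but its low-dose value was 70.5 and 58.4 FPKM in the tables with PAZA and BMN, which turns its ratio from 0.57 to -0.68 and -0.41. These uptake and activation genes thus spread to both sides around a median of -0.05, or -0.12 with the low-dose values of the table with PAZA.

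Parp1 and Parp2, the targets of BMN, had 13.2 and 6.87 FPKM at the low dose and 14.4 and 10.5 FPKM at the high dose. Parg, the hydrolase that removes poly(ADP-ribose), had 16.4 and 29.0 FPKM, the highest ratio of the 17 PARP family genes at 0.79. Parp16, an endoplasmic reticulum member, had the lowest, -0.78, at 2.84 and 1.23 FPKM. The family median was -0.04, as for all symbols, and -0.18 with the low-dose values of the table with PAZA.

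Of 32 homologous recombination and Fanconi genes, 20 had a ratio above 0 and 12 below, none past 2-fold, with a median of 0.09 that became -0.02 under the common sum, so no direction held for the group. Brca1, which directs resected breaks to recombination, had 9.05 FPKM at the low dose and 18.3 FPKM at the high dose, just under 2-fold with 1 FPKM added, whereas Brca2, which acts later in recombination, had 7.38 and 6.85. Xrcc2, of the same pathway, had 1.57 and 4.01 FPKM, and Fancm, a Fanconi translocase, 1.57 and 3.74. Rad52 was the lowest, at 4.58 and 2.90 FPKM, with 6.19 at the low dose in the table with BMN. In excision, mismatch and end-joining repair the median was 0.01, or -0.11 under the common sum. For 8 of the 32 genes above 0 the low-dose value differed between tables, and the median of the 24 others was 0.03. Ercc5, a nucleotide excision nuclease, had 3.65 and 7.67 FPKM, whereas Ercc1 had 2.82 and 1.38. Neither direction held with the low-dose values of the table with BMN, 11.1 FPKM for Ercc5 and 1.36 FPKM for Ercc1. One gene of that list was past 2-fold, Mutyh, the adenine glycosylase, at 1.40 and 0.101 FPKM, which is named here after its values were seen because its mean is under 1.

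**Figure D5:**
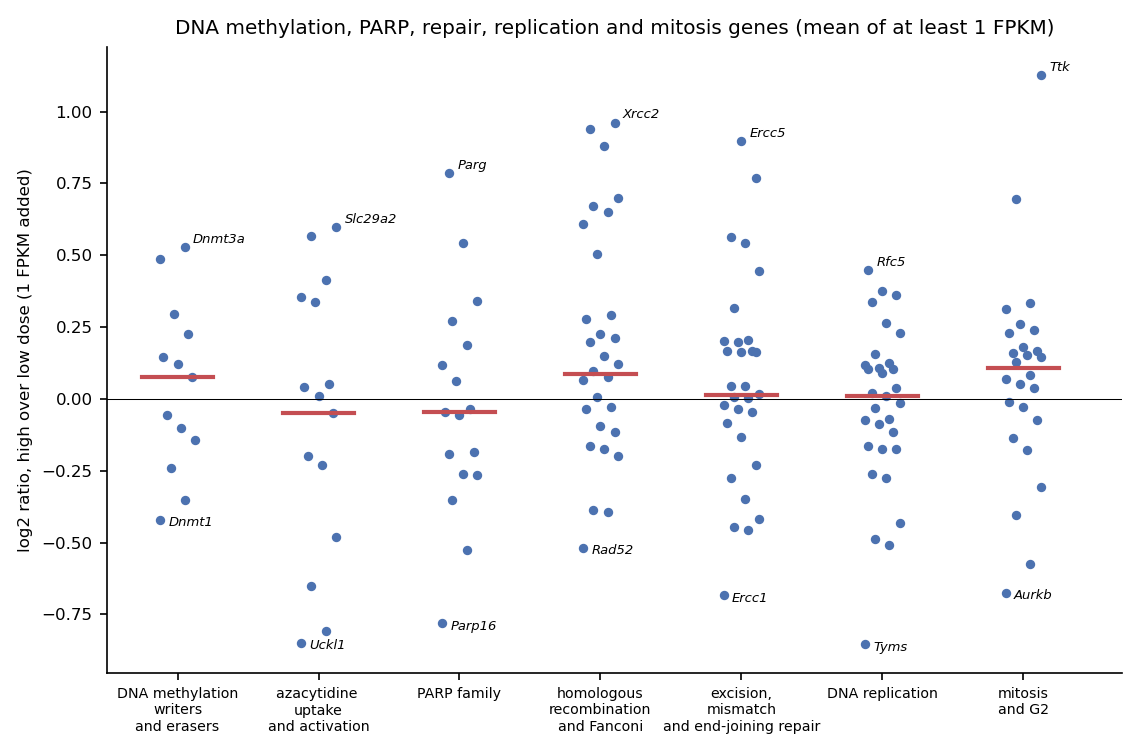
Log2 ratio, high over low dose, with 1 FPKM added, of single genes with a mean of at least 1 FPKM (points) in 7 lists, with the median over all members above 0 (bar); the highest and lowest genes are named. The medians lie between -0.05 and 0.11, and the genes spread to both sides of 0 in each list, from Tyms at -0.85 to Ttk at 1.13.

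Replication genes had a median of 0.01, with 16 of 31 above 0, and of -0.13 under the common sum. For 11 of the 31 the low-dose value differed between tables, and the median of the 20 others was 0.01. Tyms, thymidylate synthase, had 18.2 FPKM at the low dose (12.4 in the table with BMN) and 9.63 at the high dose, and Tk1, thymidine kinase, 16.8 and 11.5, while the helicase genes Mcm2 and Mcm3 had 11.5 and 13.6, and 20.02 and 21.6. Both enzymes that supply thymidylate were thus lower at the high dose, and the helicase genes were nearly level. Of 26 mitosis genes 17 had a ratio above 0, with a median of 0.11 that became -0.03 under the common sum. Ttk, the checkpoint kinase Mps1, was past 2-fold at 3.03 and 7.79 FPKM, and Foxm1, a mitotic transcription factor, had 3.81 and 6.79. Aurkb and Ccnb1, the Aurora B kinase and cyclin B1, were opposite, at 20.8 and 12.7 and at 22.7 and 14.9 FPKM. Cdk1 itself was level, at 143 and 151 FPKM. Kif14, a kinesin of cytokinesis, had 3.89 and 8.62 FPKM, the highest ratio of 34 kinesin genes, whose median was 0.14.

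The 24 p53 targets had a median of 0.03, or -0.10 under the common sum, and Cdkn1a, the p21 inhibitor, and Mdm2, the p53 ligase, were level at 2.85 and 3.10 and at 21.1 and 20.2 FPKM. With the low-dose values of the tables with PAZA and BMN the ratio of Cdkn1a was instead -0.61 and -0.71. Trp53 was listed at 1.52 and 1.29 FPKM. Perp, an epithelial p53 target of desmosomes, was past 2-fold at 0.232 and 2.44 FPKM, and Btg2, an antiproliferative gene, had 2.68 and 1.11. Among the BCL2 family, the pore former Bax had 11.5 and 15.3 FPKM and the protector Bcl2l1 10.9 and 9.02, and none of 15 genes was past 2-fold. Of 7 CDK inhibitors 5 were lower at the high dose, led by Cdkn2c at 4.08 and 1.92 FPKM, with a median of -0.14, which was -0.39 with the low-dose values of the table with PAZA.

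Germline and imprinted genes are known responders to inhibitors of DNA methyltransferases. Of 28 germline and cancer-testis genes 21 were above 0 in either library, and 7 were higher and 14 lower at the high dose, with a median of -0.07. None was at least 2-fold higher at the high dose, against 1.68% of all symbols, and 1 was at least 2-fold higher at the low dose, Asz1, of the piRNA pathway, at 1.02 and 0 FPKM, named here after its values were seen. Rhox5, an X-linked homeobox gene under methylation control, was abundant in both, at 873 FPKM at the low dose and 795 at the high dose. Tdrd9 and Piwil4, of the piRNA pathway, had 2.76 and 1.17 and 2.12 and 1.24 FPKM. In the wider X-linked families with Magea, Mageb, Xlr and Rhox symbols, 18 of 30 were lower, near the 55.4% of all symbols, including Xlr3b at 11.7 and 3.54 FPKM and Magea3 at 3.98 and 1.5. Members of these X-linked families are close copies of each other, so their single values are uncertain.

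H19, an imprinted noncoding RNA, was the exception among 29 imprinted genes, at 0.179 FPKM at the low dose and 5.19 at the high dose, a ratio of 2.39. Its partner Igf2 was listed at 0 and 0.213 FPKM. The other imprinted genes with a mean of at least 1 FPKM lay between -0.27 (Impact) and 0.37 (Rian), and the median of the list was 0.10. H19 is also abundant in skeletal muscle, whose genes differ between the same libraries as given above, and their part in its value was not tested. The clustered protocadherins, which are silenced by methylation in many tumors, had one member with a mean of at least 1 FPKM, Pcdhgc3, at 1.53 and 1.47.

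Olfactory receptor genes, which are silent outside sensory and germ cells, were the family with the most members listed. Of 442 Olfr symbols, 403 were lower at the high dose, and 389 were listed at 0 there, against 15% of all symbols. Genes of this level were often at 0 there, since of all 2497 symbols with a mean under 0.1 FPKM, 1731 were at 0 at the high dose and 24.1% had a ratio above 0. The low-dose library listed 27 of them at 0, and the summed levels were 67.2 FPKM at the low dose and 16 at the high dose, a median of 0.0887 FPKM for one gene at the low dose. Genes at 0 in both libraries are not in the table, which bounds what a count of the listed ones can show. For the same 442 rows the BMN library listed 55 above 0, as the high-dose library did for 53 and the low-dose library for 415. In the table that pairs BMN with the low dose, with 1408 Olfr rows, the counts were 85 and 414. The low-dose library therefore stood apart from the others in how many nearly silent genes it listed. Other weak families had such counts too, with 31 of 65 potassium channel genes and 54 of 143 RIKEN clones at 0 in the high-dose library, against 2 and 10 in the low-dose library. Over all 3410 symbols with a mean from 0.1 to 1 FPKM these counts were 673 and 265, and over those under 0.1 FPKM 1731 and 383, so nothing particular to these families was shown.

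Among signalling pathways no list had a median beyond 0.1 in either direction, and those above 0 turned below it under the common sum. In RAS-MAPK signalling, the kinase Mapk3 (ERK1) had 14.2 FPKM at the low dose and 9.45 FPKM at the high dose, the ligand Areg 72.9 and 51.6, and the induced gene Phlda1 8.75 and 13.3. In the TGF-beta family the ligands diverged. Tgfb1 had 5.92 and 9.94 FPKM, whereas Tgfb2 was past 2-fold lower, at 1.47 and 0.0908, and Smad7, the inhibitor that TGF-beta itself induces, had 5.14 and 2.16. The antagonists Fst and Grem1 had 0.674 and 2.04 and 10.1 and 6.48 FPKM. In WNT signalling Axin1, of the destruction complex, had 13.9 and 8.30 FPKM. Notch1 had 0.321 and 1.58 FPKM, and Egfr 0.386 and 1.39, both low in either library. Of the epithelial and mesenchymal genes, Zeb1, a repressor of the epithelial state, had 35.8 FPKM at the low dose and 20.5 at the high dose, Krt19 had 21 and 27.8, and Cdh1 (E-cadherin) was level at 0.940 and 0.920. Immediate early genes had a median of -0.06, with Fos at 6.40 and 6.19 FPKM.

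Extracellular matrix genes were examined by class. A chosen list held 21 collagens of fibrils, basement membranes and other classes. Of these, 17 were higher at the high dose, against 44.6% of all symbols, with a median of 0.23, which was 0.09 under the common sum. Over all 37 collagen symbols 22 were higher, with a median of 0.02 that became -0.02 under the common sum, so no direction held for the whole family. Col15a1, of vascular and muscle basement membranes, was past 2-fold at 3.48 and 9.99 FPKM, and Col1a1, the main fibrillar chain, had 7.65 and 15.2, while its partner Col1a2 was nearly level at 11.3 and 11.9. Col7a1, of the anchoring fibrils, was lower, at 4.43 and 2.31 FPKM. Fibroblast genes had 16 of 21 ratios above 0 and a median of 0.11, or -0.02 under the common sum. Lum, a proteoglycan of collagen fibrils, had 2.72 and 6.07 FPKM, and Fap, fibroblast activation protein, 0.420 and 1.68, whereas Pdgfra was level at 4.96 and 5.11 and Fn1, fibronectin, was lower at 598 and 490.

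Of 22 matrix metalloproteinase and inhibitor genes 15 were lower at the high dose, with a median of -0.09. The stromelysin Mmp10 and the collagenase Mmp13 were past 2-fold, at 8.43 and 3.18 and at 18.0 and 7.99 FPKM, and Mmp12, a macrophage elastase, had 136 and 93.8. Itga3, a chain of laminin receptors, had 38.7 and 20.8 FPKM, the lowest ratio of the integrin genes with a mean of at least 1 FPKM. Endothelial genes were higher in 16 of 25 cases, with a median of 0.11, among them Lyve1 at 1.01 and 2.21 FPKM. Prox1, which like Lyve1 is a gene of lymphatic vessels, was listed at only 0.0178 and 0 FPKM, so no direction of lymphatic vessels was shown. Pecam1 and Cdh5, which define the lineage, were nearly level at 8.05 and 9.04 and at 5.15 and 6.07 FPKM, and Esm1, of tip cells, was opposite at 2.43 and 1.25. Of the pericyte and smooth muscle genes, Des alone was past 2-fold, and Acta2 had 1.25 and 1.12.

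Markers of the other tissues next to a flank tumor were examined as well. Of 25 epidermal keratinocyte genes 20 were above 0, 16 of them higher at the high dose, with a median of 0.22. Krt5 and Krt15, of basal keratinocytes, were listed at 0 at the low dose and at 1.48 and 2.23 FPKM at the high dose, and Krt10, of the layers above, had 0.705 and 4.14. Most of the summed level came from Sbsn, suprabasin of the upper layers, at 31.7 and 41 FPKM and Lgals7, an epithelial galectin, which was opposite at 23.8 and 14.7 FPKM. The summed level of the list, 62.3 and 73.2 FPKM at the low and the high dose, lay below that of Control (112) and BMN (279) and near that of PAZA (65.2), in tables normalized separately. Among 15 adipocyte genes above 0, Car3, a carbonic anhydrase of fat and muscle, was past 2-fold at 1.01 and 12.0 FPKM, while the fat marker Adipoq was listed at 0 and 0.394 and Fabp4 at 27.2 and 36.5. The hemoglobin gene Hba-a1 was level, at 1.67 and 1.78 FPKM. The surfactant genes of lung epithelium were not above 0 or not in the table, and the one lung gene listed past 1 FPKM, Napsa, had 0.630 and 3.04.

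Of the 8 genes that mark leukocytes in general 6 were lower at the high dose, with a median of -0.13. Ptprc (CD45), carried by all leukocytes, had 14.3 FPKM at the low dose and 16.3 at the high dose, and the list summed to 137 and 133 FPKM. Within the myeloid cells, neutrophil genes were higher in 10 of 15 cases, with a median of 0.24 and sums of 104 and 176 FPKM. In tables normalized separately the list summed to 75.4 FPKM in Control, 138 in PAZA and 86.4 in BMN. S100a8, a subunit of calprotectin, was past 2-fold at 25.7 and 77.2 FPKM, and its partner S100a9 had 35.3 and 54.6. S100a8 and S100a9 made up most of the sum at each dose. Cxcr2, the receptor for neutrophil chemokines, had 1.3 and 2.67 FPKM and its ligand Cxcl2 4.81 and 8.63. Il1b and Wfdc21 were lower, at 14.8 and 11 and at 3.07 and 1.08, and the ratio of Il1b, -0.39 here, was -1.24 and -1.16 with the low-dose values of the tables with PAZA and BMN. The defining neutrophil genes therefore did not all share one direction.

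Macrophage and monocyte genes were lower in 16 of 25 cases, with a median of -0.13. Adgre1 (F4/80), of mature macrophages, had 9.29 FPKM at the low dose and 5.79 at the high dose, and the complement genes C1qa, C1qb and C1qc, also made by macrophages, had ratios of -0.25, -0.33 and -0.47. Csf1r, the receptor that sustains them, was opposite at 6.58 and 7.99 FPKM, as was Ly6c2, of inflammatory monocytes, at 3.86 and 7.57. Retnla, of alternatively activated macrophages, was past 2-fold at 0.318 and 2.39. Mast cell and eosinophil genes had the lowest median of any list, -0.35, with 9 of 11 lower. The mast cell proteases Cma1 and Mcpt4 had 5.47 and 2.30 and 2.05 and 0.793 FPKM, and Cpa3 5.92 and 3.74.

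T cell genes were lower in 12 of 16 cases, with a median of -0.26 and sums of 17.8 and 10.5 FPKM, and 3 of them had a mean of at least 1 FPKM. Trbc2, a T cell receptor constant region, had 2.36 and 0.563 FPKM, Cd3e 1.18 and 0, and Cd3g, of the same complex, 1.29 and 1.11, while Cd3d was listed at 0 and 0.103. At such levels the subunits of one receptor did not share a direction. The killer genes were split as well, with Klrd1 (CD94) past 2-fold at 5.55 and 1.83 FPKM and Gzma, a granzyme, at 2.12 and 4.81, while Gzmb was level at 3.26 and 3.42. In the tables with PAZA and BMN the low-dose value of Gzma was 3.95 and 4.24 FPKM. Among B cell genes Sdc1, which tumor cells express too, was the one with a mean of at least 1 FPKM, at 15.0 and 12.3.

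Interferon-stimulated genes had 23 of 36 ratios above 0 and a median of 0.10, which became -0.01 under the common sum. For 25 of the 36 the low-dose value differed between tables. The median was -0.25 with the low-dose values of the table with PAZA and -0.01 over the 11 other genes, so no direction held for the list. Isg15 had 6.41 FPKM at the low dose and 10.2 at the high dose, but 11.4 and 12.8 at the low dose in the tables with PAZA and BMN. Oas1a, an oligoadenylate synthetase, had 2.81 and 5.42, whereas Oasl1, of the same family, was past 2-fold lower at 3.70 and 1.31. Mx1 had 2.60 and 1.37, a ratio of -0.60, which was -2.70 and -1.39 with the low-dose values of the tables with PAZA and BMN. Members of one program thus lay on both sides. Cgas, the DNA sensor, and Tmem173 (STING), its adaptor, had 1.92 and 1.61 and 8.93 and 6.28 FPKM. MHC class I genes had a median of 0.05, which became -0.09 under the common sum and -0.20 with the low-dose values of the table with PAZA. B2m had 5549 and 6213 FPKM, Tap1 9.04 and 14, and the immunoproteasome subunits Psmb9 and Psmb10 were in opposite directions, at 68.2 and 42.8 and at 5.91 and 9.96. The low-dose values of these 4 genes differed between tables, and with those of the table with BMN all 4 were lower at the high dose, at -0.84 for B2m, -0.35 for Tap1, -1.65 for Psmb9 and -0.23 for Psmb10. The class II chains H2-Aa and H2-Ab1 had 9.70 and 14.3 and 26.5 and 38.0 FPKM, and Cd40, a costimulatory receptor, was past 2-fold lower at 3.84 and 0.370, as it was with the low-dose values of the other tables. Cd274 (PD-L1) was level, at 5.48 and 5.15 FPKM, though at -0.82 and -0.96 with the low-dose values of the tables with PAZA and BMN, and Nt5e (CD73), which makes adenosine, had 23 and 13.2.

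Chemokine genes had a median of -0.02, or -0.12 with the low-dose values of the table with PAZA, and quartiles of -0.35 and 0.42. Ccl2, the main monocyte chemokine, was level at 131 and 134 FPKM, though its low-dose value was 186 and 262 FPKM in the tables with PAZA and BMN. Ccl3 had 7.12 and 12.1 and its neighbor Ccl4 1.95 and 0.599 (with 1.66 and 3.41 at the low dose in the tables with PAZA and BMN), and Ccl12 and Ccl8 had 44.1 and 25.7 and 29.9 and 19.1. Among cytokines, Il34, a ligand of the Csf1r receptor, was past 2-fold higher at 1.23 and 3.83 FPKM and Tnfsf13b (BAFF), a B cell survival factor, past 2-fold lower at 3.95 and 0.567. Among interleukin receptors Il17rc had 1.60 and 7.48 FPKM and Il7r 5.25 and 2.51.

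Large symbol families were centred near all symbols, with a few members apart. Of 385 zinc finger (Zfp) genes, 5 were at least 2-fold higher at the high dose and 7 at the low dose, near the 1.68% and 1.32% of all symbols, and Zfp236 and Zfp516 led with 5.90 and 34.0 and 2.19 and 10.3 FPKM. Of 288 solute carriers 4 were past 2-fold higher at the high dose, among them the mitochondrial carrier Slc25a26 at 0.557 and 2.93 FPKM, and 2 at the low dose, no more than the same shares. Of 71 Rab symbols, most of them small GTPases of vesicle traffic, 4 were past 2-fold lower at the high dose, against 1.32% of all symbols, including Rab43 at 3.63 and 0.846. One was past 2-fold higher, the antisense gene Rab11fip4os2, at 0 and 1.51, again named after its values were seen. The Hox genes, at low level, were lower in 21 of 32 cases, with a median of -0.11, and of the schlafens, interferon-responsive genes, 7 of 9 were higher, with a median of 0.26. The transporters Abcb1b, which exports drugs, and Abcc1 had 5.08 and 2.55 and 10.4 and 6.93 FPKM, and Abcb8, of mitochondria, 0.537 and 3.09.

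Single protein-coding genes outside these lists made up much of what passed 2-fold. Mfsd10, a membrane transporter, had 38.7 FPKM at the low dose and 2.58 at the high dose, the lowest ratio of any protein-coding gene with a mean of at least 5 FPKM, and Ncf4, a subunit of the phagocyte oxidase, had 11.2 and 1.71. Mtrf1l, a mitochondrial release factor, and Impa2, an inositol phosphatase, followed at 11.8 and 2.78 and at 9.77 and 2.32. The genes below are those above 0 in both libraries and outside the muscle list, a choice made after their values were seen. Ccdc120 had 0.198 and 10.2 FPKM, Foxn3, a forkhead repressor, 4.53 and 20.7, and Akr1e1, an aldo-keto reductase, 3.67 and 16.9. Tfe3, a transcription factor of lysosome genes, had 2.52 and 10.9 FPKM and Camta1 10.3 and 32.7, and Thbs4, a thrombospondin of tendon and muscle, 2.74 and 12.1. On the other side Fuca1, a lysosomal fucosidase, had 37.1 and 13 FPKM, and Depdc5, of the GATOR complex that restrains mTOR, 8.24 and 2.42.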

How the data were processed

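The series holds RNA sequencing of 5 groups with 1 library each, and the table with both BMN/PAZA doses was used; 4 other tables served for levels beside it. Per the labels, the authors used HISAT2 and StringTie on GRCm38, with versions not given in the sources used here, and the deposited values, which carry no unit name, were read as FPKM. No counts are given, so depth is unknown and counting intervals could not be computed.

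The low-dose column was divided by 3.6, the row with the higher mean was kept for repeated symbols, and log2 ratios were taken with a pseudocount of 1 FPKM over symbols above 0 in either library (Python 3.11.15, numpy 2.4.6, pandas 2.3.3; checked on simulated data). No test was run. Lists were summarised by counts and medians beside those of all symbols. Symbols were matched to GENCODE M21 for 15939 of 16155. The members and the lists were chosen with earlier results of these data known. Genes named are the 10 highest and lowest ratios at a mean of at least 5 FPKM, up to 3 highest and lowest members of each list at a mean of at least 1 FPKM with its first 2 members, the 2 highest and lowest of each symbol family, and reference genes such as Trp53 and Gapdh; some genes of the rule are not reported here. All 17 names of the histone list were absent, and 8 Hist symbols had a median of -0.41. Alternatives were a common sum, the low column as deposited, centring, a pseudocount of 0.1, summed rows and a mean of at least 1. The low-dose values of the table with PAZA were a further one, while those of the table with BMN served for single genes only. Chosen after seeing the data were the scale beside BMN and a common sum without mitochondrial genes. So were leaving out genes whose low-dose value differs between tables, and leaving out the muscle list and the short RNA genes.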

Additional observations from a re-analysis of the deposited data

How the results depend on the processing

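No paired analysis was possible because each dose has 1 library, and no replicate could be left out. The median log2 ratio of all symbols was -0.04 and between -0.14 and 0 under every scaling other than the low-dose column as deposited, where it was -1.44, the factor of 3.6 being kept in. With the column as deposited, 88 symbols were at least 2-fold higher at the high dose and 10649 at the low dose, against 272 and 214, and 2 lists or families had a median above 0, against 46. With a pseudocount of 0.1 the counts were 1196 and 2068, since weakly expressed genes then pass 2-fold. With both columns scaled to a common sum, 371 symbols were at least 2-fold higher at the high dose and 548 at the low dose, and 16 lists or families had a median above 0. The low-dose column on the scale it has beside BMN gave the same number of medians. With a common sum without mitochondrial genes, 289 and 200 symbols passed 2-fold, and 55 medians were above 0. Mitosis genes then had a median of 0.15, and homologous recombination and Fanconi genes 0.12. Both of these scalings were chosen after seeing the data. With the column as deposited the medians of the mitochondrially encoded genes, of the 30 Snord and Snora symbols and of the 34 snoRNA genes turned from 0.78, 1.09 and 0.81 to -1.04, -0.73 and -1.01, and among the named genes the ratios that turned below 0 were those of Camta1 (-0.18), S100a8 (-0.26), Wdtc1 (-0.0851), Sft2d1 (-0.0634), Tfdp2 (-0.20), Lmf2 (-0.18), Efemp2 (-0.38) and Des (-0.28). Of the 104 lists and families, 43 had a median whose sign differed under some scaling other than the column as deposited, so a small median gives no direction. With the low-dose values of the table with PAZA the medians of interferon-stimulated, MHC class I and snoRNA genes were -0.25, -0.20 and 0.29, against 0.10, 0.05 and 0.81. Without the 345 genes whose low-dose value differs between tables, an alternative chosen after seeing the data, 267 symbols were at least 2-fold higher at the high dose and 206 at the low dose. The scale of the low-dose column, its differing values, and the lack of replicates and of read counts limit these results.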
